A study of Mus musculus with 12 samples.

Results

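Oocytes of primary follicles were compared with oocytes of primordial follicles after the ovary had been cultured with dorsomorphin (DM). The comparison used the 3 libraries labelled as oocytes from primary follicles with DM and the 3 labelled as oocytes from primordial follicles with DM, which are 6 of the 12 libraries of the series, and it covered all 55401 genes of the count table. The other 6 libraries are 3 of each stage from control ovaries. The ovaries came from C57Bl/6j x CBA/J mice aged 7 to 8 days and, by the study's methods, were cultured for 5 days with DM or with the solvent DMSO, whereas the labels call the material in vivo and the control a sham treatment. Each library held 200 oocytes, pooled after laser capture microdissection (LCM) from stained sections, and its RNA was amplified before sequencing. The study's methods give a range of DM concentrations for cultured ovaries without saying which was used for the sequenced ones. The samples of a group were described as biologically independent, and the p-values below measure the spread between these pools.

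A primordial follicle is a dormant oocyte within flattened pregranulosa cells. On activation, the oocyte starts to grow and to secrete its zona pellucida, the surrounding cells become cuboidal, and the follicle is called primary. Signalling through PI3K and AKT, which drives the transcription factor FOXO3 out of the oocyte nucleus, is the best known trigger of this step. DM blocks AMPK, the kinase that senses low cellular energy, and it also blocks type I receptors for bone morphogenetic proteins (BMPs). The comparison asked which transcripts separated the stages while DM was present.

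Under DM, oocytes of primary follicles gave a narrower set of transcripts than oocytes of primordial follicles at cuts of 10 or 1000 counts. At least 10 counts were found for 3890, 3263 and 3603 genes in primary and 6229, 5971 and 3939 in primordial libraries. The stages did not overlap at that cut, although the third primordial library was close to the highest primary one. Genes with any count numbered 7825, 7326 and 7302 in primary and 9652, 9752 and 7807 in primordial libraries, and there the stages overlapped. The depth was 27507583, 42639326 and 35071629 counts in primary and 38225872, 34889063 and 21051641 in primordial libraries, and the shallowest library was thus a primordial one. The 100 most abundant genes took 35.6%, 48.5% and 43.7% of the counts in primary and 29.9%, 28.8% and 31.8% in primordial libraries. The scaling factors of the trimmed mean of M-values (TMM), which correct a library for its composition, were 1.03, 0.365 and 0.563 in primary against 1.85, 1.83 and 1.39 in primordial libraries, again without overlap. In bulk RNA, fewer cells of a type and less RNA per cell cannot be told apart.

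**Figure D1:**
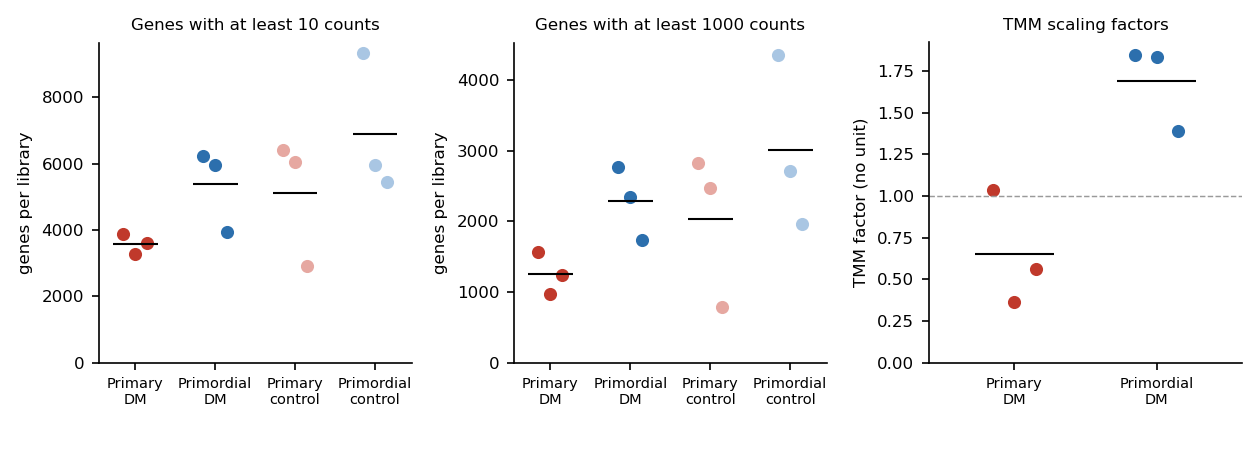
Each point is 1 library and each bar the mean of 3, for the genes with at least 10 counts (left), the genes with at least 1000 counts (middle) and the TMM factors of the DM libraries (right, no unit). The primary DM libraries held 972 to 1564 genes with at least 1000 counts and the primordial DM libraries 1742 to 2769.

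The labelled cell type was checked against marker lists. Transcripts of growing oocytes were scarce in both stages. Of 30 such genes, 5 passed the filter on low counts, and the level summed over the list was 1.31, 101 and 179 CPM, counts scaled to the library total, in primary and 11.4, 50.5 and 15.9 CPM in primordial libraries. *Zp3*, a zona pellucida gene, had 0, 0 and 255 counts in primary and 0, 187 and 0 in primordial libraries, and *Bmp15*, an oocyte growth factor gene, reached 24 counts at most. Each was thus seen in 1 library of each stage. The germ-cell list reached 1440, 1469 and 1614 CPM in primary and 297, 2225 and 21.4 CPM in primordial libraries. Stroma, theca and muscle genes reached 3683 to 15256 CPM in primary and 3204 to 5184 CPM in primordial libraries, and granulosa cell genes 1467 to 11212 CPM and 619 to 3341 CPM. Per kilobase of exon, the median over the 6 libraries was 19.3 CPM for the growing-oocyte, 225 for the germ-cell, 382 for the granulosa cell and 614 for the stroma list. Of the 22 granulosa cell genes, 7 reached 1000 counts in a primary and 11 in a primordial DM library. *Foxl2*, *Wt1* and *Gja1* had 474295, 67327 and 32410 counts in their highest DM library. For *Foxl2* this was the second primary library, where it made up nearly all of the 11212 CPM of the granulosa list. The granulosa markers *Fshr* and *Cyp19a1* had no counts in any of the 12 libraries, controls included. The part of other cells in the stage difference was not tested.

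One feature of the counts bears on every low value. For 136 genes with at least 10000 counts in exactly 1 of the 12 libraries and under 1% of that number in each other, the remaining libraries held a median of 1.41 counts per 10000 counts of the high library, and 77.9% of these genes had a count in at least 9 of the 11 others. Among genes whose highest library held 20 to 99 counts, 4.69% did. The source of these small counts was not tested, and they are kept in the values below.

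No gene separated the stages at the threshold of the test. edgeR's quasi-likelihood fit called 0 of the 4331 genes that passed the filter (0%) at a Benjamini-Hochberg adjusted p under 0.05, and the smallest adjusted p was 0.286. At an unadjusted p under 0.05 there were 746 genes, 240 higher in primary oocytes (5.54%) and 506 lower (11.7%). The biological coefficient of variation was 1.84, and the median standard error (SE) of a log2 fold change was 2.98. Without 1 primary library the calls were *Kctd21* and *Shank3* (without the first or the third) or *Gm11575*, *Hoxb4*, *Smad4* and *Tbp* (without the second), all genes with 1 or 2 very high libraries. DESeq2 called 911 genes at an adjusted p under 0.05, 380 of them higher.

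A typical gene of this comparison was abundant in some libraries and nearly missing in others of the same stage. In 3761 of the 4331 tested genes (86.8%) the highest of the 6 libraries held over 100 times the counts of the lowest, taking a count of 0 as 1. Of the 5235 genes with at least 1000 counts in any DM library, 2535 (48.4%) reached that level in exactly 1 library and 150 (2.87%) in all 6.

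With TMM or library sizes alone, genes whose primary and primordial libraries did not overlap lay mostly on the lower side. After TMM scaling, all 3 primary libraries were above all 3 primordial ones for 180 genes (4.16%) and below them for 523 genes (12.1%). With library sizes alone the split was 60 genes (1.39%) against 753 (17.4%), so the lower side was the larger under both. By direction, 53.3% of tested genes had a positive fold change with TMM and 39.0% with library sizes alone. Over all tested genes, the median log2 fold change was 0.35 with TMM, -0.96 with library sizes alone and 2.04 with the scaling of relative log expression (RLE), and the RLE fit had 472 higher and 159 lower genes at an unadjusted p under 0.05.

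**Figure D2:**
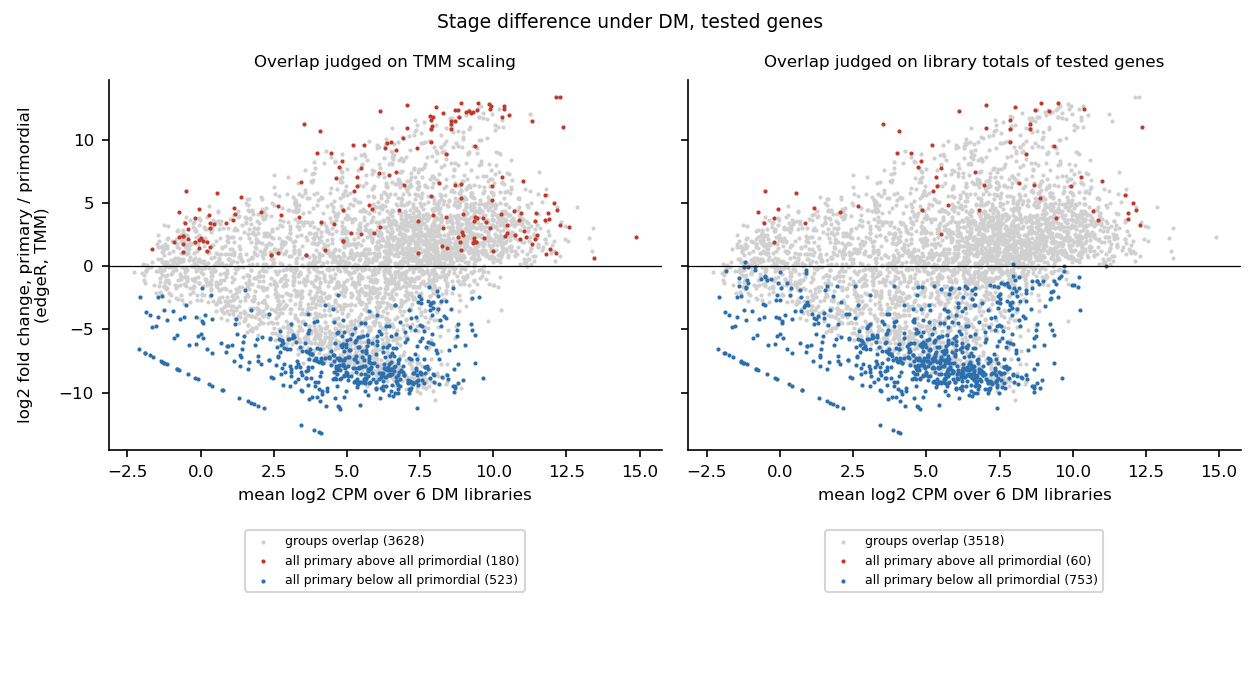
Each point is 1 of 4331 tested genes, by its mean log2 CPM over the 6 DM libraries (horizontal) and its log2 fold change of primary over primordial oocytes (vertical), coloured by overlap of the libraries under TMM (left) or library sizes (right). Genes without overlap numbered 180 above and 523 below on the left, and 60 and 753 on the right.

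Strong, all-or-none signals, read on unscaled counts, leaned the same way. The primary DM libraries also held fewer genes with at least 1000 counts, 972 to 1564 against 1742 to 2769 in primordial ones. A split toward the primordial side is thus built in, and whether the split below exceeds it was not tested. Among the 5235 genes that reached 1000 counts in a DM library, 153 (2.92%) did so in all 3 primordial libraries and no primary one, and 5 (0.0955%) in all 3 primary libraries and no primordial one. The 153 genes had a median of 6907 counts in primordial and 14 counts in primary libraries. The 5 genes on the primary side were *Foxl2*, *Usp15*, *Atrnl1*, *Cul4b* and *G6pdx*. *Cul4b*, a scaffold of an X-linked ubiquitin ligase, had 2558, 8397 and 19548 counts in primary and 628, 61 and 178 in primordial libraries. *G6pdx*, the X-linked enzyme that opens the pentose phosphate pathway, had 5910, 6687 and 1312 counts against 496, 4 and 16. In both genes the lowest primary library was above the highest primordial one.

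Of the genes higher in primary oocytes, *Foxl2* had one of the smallest p among those without overlap. *Foxl2* (ENSMUSG00000050397.4, GRCm38 chromosome 9, 98955288 to 98958543, plus strand) encodes a transcription factor that maintains granulosa cells. It had 4084, 474295 and 6807 counts in primary libraries and 97, 656 and 61 in primordial libraries. The primary libraries were all higher, and the second of them held most of the signal. The log2 fold change was 11.03 (SE 2.91, n = 3 and 3, edgeR adjusted p 0.286) and was 5.50 without that library. Its exon overlaps the antisense gene *Foxl2os*, and the counting setting for strand is not given in the sources used here.

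Other genes with the smallest p on the higher side were *Shank3*, *Kctd21*, *Map3k20*, *Rims2*, *Smad4*, *Dbnl*, *Hoxb4*, *Vash2*, *Trim9* and *Micu3*, each with an adjusted p of 0.286. In 6 of them a single primary library carried the difference. *Shank3*, a synaptic scaffold gene, had 48, 449701 and 38 counts in primary and 43, 50 and 32 in primordial libraries. *Kctd21*, an adaptor of a ubiquitin ligase, had 65, 409770 and 53 counts against 56, 46 and 23. *Hoxb4*, a homeobox transcription factor gene, had 196725, 56 and 42 counts against 28, 35 and 29. Outside the 1 high library, these genes lay below 70 counts in both stages.

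*Vash2*, a secreted angiogenesis factor gene, had 12, 88537 and 12 counts in primary and 22, 14 and 8 in primordial libraries. *Trim9*, a ubiquitin ligase gene of neurons, had 11, 83252 and 11 counts against 14, 20 and 5. *Micu3*, a regulator of the mitochondrial calcium uniporter, had 11, 65433 and 14 counts against 14, 8 and 5. Their log2 fold changes were 13.40 (SE 3.34) for *Shank3*, 13.38 (SE 3.37) for *Kctd21*, 11.78 (SE 3.84) for *Hoxb4*, 12.67 (SE 4.13) for *Vash2*, 12.81 (SE 4.19) for *Trim9* and 12.93 (SE 4.32) for *Micu3*. Without the high library, which was the first for *Hoxb4* and the second for the others, they were 0.98, 1.54, 1.95, 0.78, 0.86 and 1.55 in the same order. By library totals, *Kctd21* and *Micu3* kept no overlap between the stages and the other 4 overlapped.

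In *Map3k20*, *Rims2*, *Smad4* and *Dbnl*, 2 of the 3 primary libraries were high. *Map3k20*, a stress-activated kinase gene, had 117870, 166263 and 80 counts in primary and 211, 53 and 33 in primordial libraries. *Rims2*, a synaptic vesicle gene, had 36, 30586 and 111530 counts against 34, 25 and 13. *Dbnl*, an actin-binding adaptor gene, had 15412, 21 and 95506 counts against 21, 19 and 9. The remaining primary library was close to the primordial ones in each gene, and by library totals *Rims2* alone kept no overlap. The log2 fold changes were 11.46 (SE 3.32) for *Map3k20*, 12.41 (SE 3.80) for *Rims2*, 11.96 (SE 3.68) for *Smad4* and 12.47 (SE 4.01) for *Dbnl*, and left-out libraries kept each above 9.

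Since a small p could rest on 1 library, the genes were also ordered by the gap between the stages, the CPM of the lowest library of the higher stage over that of the highest library of the lower stage, with 3 counts as the floor. This order was chosen after the values had been seen, and no test was made of it. The genes with the widest gap on the higher side included *Gid4*, *Fam222b*, *Usp15*, *Nup93*, *Actr1a*, *Rpl29*, *Atrnl1*, *Foxl2* and *Apoe*, with gaps from 40.9-fold to 7.44-fold.

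*Gid4*, the substrate receptor of a ubiquitin ligase (GRCm38 chromosome 11, 60417145 to 60450927, plus strand), had 677, 14398 and 7773 counts in primary and 0, 21 and 10 in primordial libraries. *Usp15*, a deubiquitinase gene whose product also acts on receptors of the transforming growth factor beta pathway, had 4585, 4104 and 3021 counts against 40, 9 and 72. All 3 primary libraries of *Usp15* held at least 1000 counts, and no primordial library held 100. Its log2 fold change was 7.46 (SE 3.80, edgeR adjusted p 0.292), and that of *Gid4* was 10.87 (SE 4.35, edgeR adjusted p 0.286).

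*Nup93*, which encodes a subunit of the nuclear pore, had 415, 648 and 1829 counts in primary and 37, 2 and 1 in primordial libraries. *Actr1a*, a subunit of dynactin, had 8922, 15466 and 625 counts against 44, 33 and 6. *Rpl29*, a protein of the large ribosomal subunit, had 27103, 51967 and 55212 counts against 2547, 813 and 22. Their primordial values spread widely but stayed below every primary value. Fold changes on the log2 scale were 7.87 (SE 3.61), 9.86 (SE 4.15) and 7.07 (SE 3.08), each with an edgeR adjusted p of 0.286.

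*Fam222b* had 628, 11077 and 592 counts in primary and 4, 15 and 2 in primordial libraries, with a log2 fold change of 10.90 (SE 4.40). *Atrnl1*, an attractin-like membrane protein gene, had 24395, 44683 and 1872 counts against 83, 210 and 9, with a log2 fold change of 9.55 (SE 3.75). *Apoe*, the apolipoprotein E gene, had 3229, 80 and 62 counts against 5, 0 and 5, with a log2 fold change of 8.94 (SE 3.79) that was 5.50 without the first primary library. None of the 3 had an adjusted p below 0.286.

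**Figure D3:**
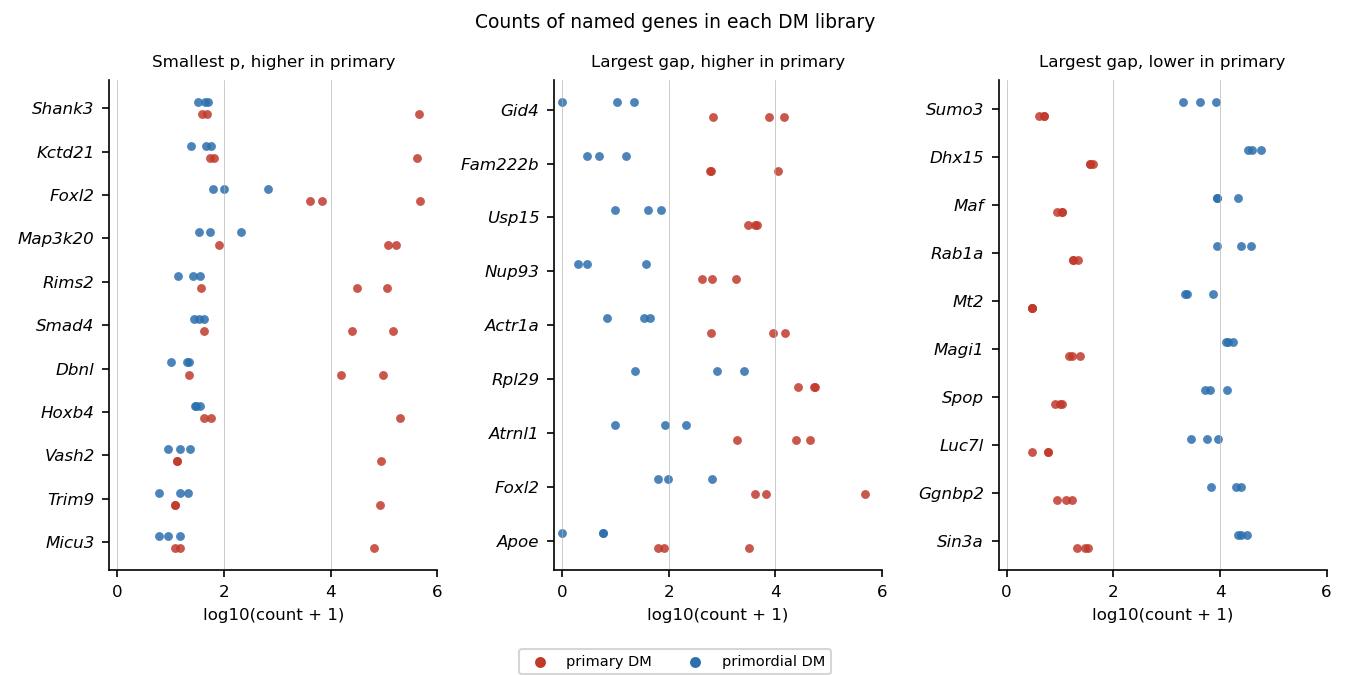
Each point is the log10 of 1 plus the count of a gene in 1 library, for primary DM (red) and primordial DM (blue), with genes in rows. Genes with the smallest p on the higher side (left) mostly had 1 or 2 high primary libraries, for example 449701 counts of *Shank3* in the second, while genes with the widest gaps (middle, right) separated all 6 libraries.

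On the lower side, the widest gaps were far larger than on the higher side, from 853-fold to 562-fold. The 10 genes were *Sumo3*, *Dhx15*, *Maf*, *Rab1a*, *Mt2*, *Magi1*, *Spop*, *Luc7l*, *Ggnbp2* and *Sin3a*, and in each of them all 3 primordial libraries held at least 1000 counts. Their counts in primary libraries, from 2 to 41, were small too, but the feature described above was measured only in genes with a single high library. The source of these counts was not tested.

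*Dhx15*, an RNA helicase that takes spliceosomes apart (ENSMUSG00000029169.11, GRCm38 chromosome 5, 52150203 to 52190514, minus strand), had 35, 35 and 41 counts in primary and 59438, 33564 and 39855 in primordial libraries. In CPM these were 1.27, 0.821 and 1.17 against 1555, 962 and 1893. The groups were far apart and even within each stage. The log2 fold change was -9.00 (SE 3.75, n = 3 and 3, edgeR adjusted p 0.286).

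Other RNA processing and chromatin genes belonged to this group. *Luc7l*, a splicing factor gene, had 2, 5 and 5 counts in primary and 5730, 2927 and 9282 in primordial libraries. *Sin3a*, the scaffold of a histone deacetylase complex, had 28, 20 and 32 counts against 21881, 31962 and 24530. *Maf*, a transcription factor gene (GRCm38 chromosome 8, 115682942 to 115707794, minus strand), had 10, 8 and 10 counts against 21829, 8620 and 8727. None of these overlapped between the stages. On the log2 scale the differences were -8.78 (SE 3.89) for *Sin3a* and -9.13 (SE 4.08) for *Maf*, each with an edgeR adjusted p of 0.286.

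Genes of protein modification and transport were also in it. *Sumo3*, a ubiquitin-like modifier gene, had 3, 4 and 4 counts in primary and 4301, 8323 and 2049 in primordial libraries, and it shares exon sequence on the same strand with the gene model *Gm49325*. *Spop*, a substrate adaptor of a cullin ubiquitin ligase, had 7, 9 and 10 counts against 6550, 13362 and 5246. *Rab1a*, a GTPase of transport from the endoplasmic reticulum to the Golgi, had 17, 21 and 17 counts against 24391, 37870 and 8760. Every primordial value was far above the primary ones. *Spop* and *Rab1a* had log2 fold changes of -8.56 (SE 3.94) and -8.86 (SE 3.97), each with an edgeR adjusted p of 0.286.

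*Mt2*, a metallothionein gene, had 2, 2 and 2 counts in primary and 7418, 2454 and 2212 in primordial libraries. *Magi1*, a scaffold of tight junctions, had 14, 23 and 16 counts against 12816, 14131 and 17882. *Ggnbp2*, named for binding to gametogenetin, had 16, 12 and 8 counts against 25112, 20371 and 6907. The stages were again separate in all 3 genes. The log2 fold changes were -8.57 (SE 3.97) for *Magi1* and -9.09 (SE 4.06) for *Ggnbp2*, with the same adjusted p of 0.286.

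The 12 lower genes with the smallest p had no count in any primary library, so each fold is a lower bound against a floor of 3 counts per library. They were *Pip5k1b*, *Npc1*, *Kcnd2*, *Ppp4r1*, *Bsg*, *Tmem87a*, *Got1*, *Ssu72*, *Ttc21b*, *Cgn*, *Mir8094* and *Gxylt2*. *Ppp4r1*, a regulatory subunit gene of a protein phosphatase, had 509, 266 and 368 counts in primordial libraries and was at least 145-fold lower in primary oocytes. *Pip5k1b*, a lipid kinase gene, had 309, 148 and 60 counts and was at least 57.3-fold lower. These primordial values were well below those of the genes with the widest gaps.

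*Npc1*, needed for cholesterol to leave lysosomes, had 119, 61 and 125 counts in primordial libraries and was at least 40.8-fold lower in primary oocytes. *Kcnd2*, a potassium channel gene, had 165, 44 and 98 counts and was at least 38.6-fold lower. *Bsg*, the basigin gene, had 104, 155 and 24 counts and was at least 31.3-fold lower. In these 3 genes the signal was spread over all primordial libraries, though not evenly.

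In the other 7 genes the primordial counts were more uneven. *Tmem87a*, a Golgi membrane protein gene, had 805, 493 and 43 counts, and its bound fell from 141-fold to 91.6-fold without the first library. *Got1*, the cytosolic aspartate aminotransferase gene, had 491, 99 and 10 counts, and its bound fell from 61.0-fold to 18.8-fold without the same library. *Ssu72*, a phosphatase gene of RNA polymerase II, had 15, 516 and 145 counts, with bounds of 83.3-fold and, without the second library, 41.2-fold. The signal in these genes was thus uneven among primordial pools.

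*Ttc21b*, a gene of ciliary transport, had 147, 22 and 485 counts in primordial libraries, with bounds of 104-fold and, without the third library, 25.3-fold. *Cgn*, the gene of the tight junction protein cingulin, had 136, 17 and 457 counts, with bounds of 97.2-fold and 22.9-fold. *Gxylt2*, a xylosyltransferase gene, had 37, 20 and 2775 counts, with bounds of 503-fold and 8.73-fold. The third primordial library was the highest in all 3. *Mir8094*, which lies within an exon of *Ddx39b* on the same strand, had 17, 63 and 2610 counts and bounds of 476-fold and 12.7-fold, also without the third library, and reads of the 2 genes cannot be told apart.

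By library totals, the most abundant genes of the 6 libraries overlapped between the stages, and after TMM scaling all did but *Actb* and *Malat1*, whose primary libraries were then above all primordial ones. By median CPM the genes were *Actb*, *Malat1*, *Eif4g2*, *Ahnak*, *Pabpc1*, *Hnrnph1*, *Ctnnb1* and *Gnas*. *Actb*, the beta-actin gene, had 509551, 1407313 and 721595 counts in primary and 751442, 337252 and 366476 in primordial libraries. *Malat1*, a nuclear long noncoding RNA, had 320289, 225829 and 241300 counts against 331713, 553870 and 307440. *Eif4g2*, a translation initiation factor gene, had 196533, 466505 and 102061 counts against 477997, 353981 and 150271. The log2 fold changes were 2.27 (SE 1.37, edgeR adjusted p 0.346), 0.61 (SE 1.59, edgeR adjusted p 0.852) and 1.18 (SE 1.63, edgeR adjusted p 0.702), with smaller SEs than for the genes above.

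*Ahnak*, a large scaffold protein gene, had 176935, 21847 and 200781 counts in primary and 365970, 110514 and 89710 in primordial libraries. *Pabpc1*, the gene of a poly(A)-binding protein, had 129055, 632524 and 50540 counts against 201333, 244094 and 80426. *Hnrnph1*, a splicing regulator gene, had 103083, 651150 and 211808 counts against 314929, 35725 and 40557. For *Hnrnph1* the second primary library was the highest and the first was below the first primordial one. The log2 fold changes were 0.78 (SE 1.86), 2.25 (SE 1.72) and 3.04 (SE 1.75), with edgeR adjusted p of 0.836, 0.463 and 0.327.

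*Gnas*, the gene of a stimulatory G protein subunit, had 1438, 75141 and 211153 counts in primary and 143143, 145684 and 88255 in primordial libraries, with a log2 fold change of 1.02 (SE 1.98, edgeR adjusted p 0.798). The first primary library was the lowest. The sign of the fold change turned with library sizes alone for *Malat1*, *Eif4g2*, *Ahnak* and *Gnas*.

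Gene lists were described by their tested members and set beside all tested genes, of which 53.3% were higher and whose median log2 fold change was 0.35. No member of any list had an edgeR adjusted p under 0.05. All 5 tested growing-oocyte genes were higher in primary oocytes, with a median log2 fold change of 3.67 that was 1.71 with library sizes alone. *Uchl1*, a deubiquitinase gene of oocytes and neurons, led them with 1, 4159 and 2635 counts in primary and 184, 1032 and 319 in primordial libraries. *Gdf9*, an oocyte growth factor gene, had 0, 0 and 2389 counts against 191, 68 and 0. *Mos*, the kinase gene that holds eggs in meiosis, had 1, 0 and 603 counts against 0, 69 and 0. The stages overlapped in these 3 genes, and 1 or 2 primary libraries carried the signal. *Zp2*, a zona pellucida gene named after its values had been seen, was the only tested member without overlap, at the low counts of 9, 20 and 27 in primary and 5, 2 and 1 in primordial libraries.

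Of 27 germ-cell and primordial-oocyte genes, 8 were tested, 6 of them higher, with a median of 2.83 that was 0.53 with library sizes alone. *Elavl2*, an RNA-binding protein gene of oocytes, had 37929, 22 and 27908 counts in primary and 103, 9847 and 7 in primordial libraries. *Ddx4*, the germ-cell RNA helicase gene also called Vasa, had 13, 47451 and 303 counts against 15, 19082 and 50. *Foxo3* had 29, 22 and 5751 counts against 127, 24621 and 58, a log2 fold change of -0.48 (SE 2.98, edgeR adjusted p 0.940). All 3 overlapped between the stages, and the library that was high differed from gene to gene.

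Of 22 granulosa cell genes, 10 were tested, 5 higher and 5 lower, with a median of 0.21 that was -1.25 with library sizes alone. At an unadjusted p under 0.05, *Foxl2* and *Nr5a2* were higher and *Krt8* was lower in primary oocytes. *Nr5a2*, a nuclear receptor gene, had 13516, 7 and 6001 counts in primary and 5, 27 and 3 in primordial libraries. *Krt8*, a keratin gene, had 3, 1 and 0 counts against 1932, 7749 and 544. *Krt8* did not overlap, and *Nr5a2* was low in the second primary library.

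The other leading granulosa genes did not reach an unadjusted p under 0.05 in edgeR. *Wt1*, a transcription factor gene, had 3934, 3688 and 23941 counts in primary and 67327, 5410 and 188 in primordial libraries. *Gja1*, the gap junction gene of granulosa cells, had 9060, 29 and 10371 counts against 13027, 32410 and 5498. Both overlapped between the stages. Of 17 stroma, theca and muscle genes, 10 were tested, 7 of them higher, with a median of 1.31 that was 0.10 with library sizes alone. *Col1a1* and *Col1a2*, which encode the chains of type I collagen, had 71671, 94147 and 39040 and 217214, 7009 and 25122 counts in primary libraries. In primordial libraries *Col1a1* had 26140, 40469 and 12453 and *Col1a2* 12847, 49463 and 44387 counts. *Vim*, the vimentin gene, had 56865, 14490 and 46651 counts against 27906, 26487 and 28366. By library totals all 3 genes overlapped, and after TMM scaling *Col1a1* did not, with its primary libraries higher.

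**Figure D4:**
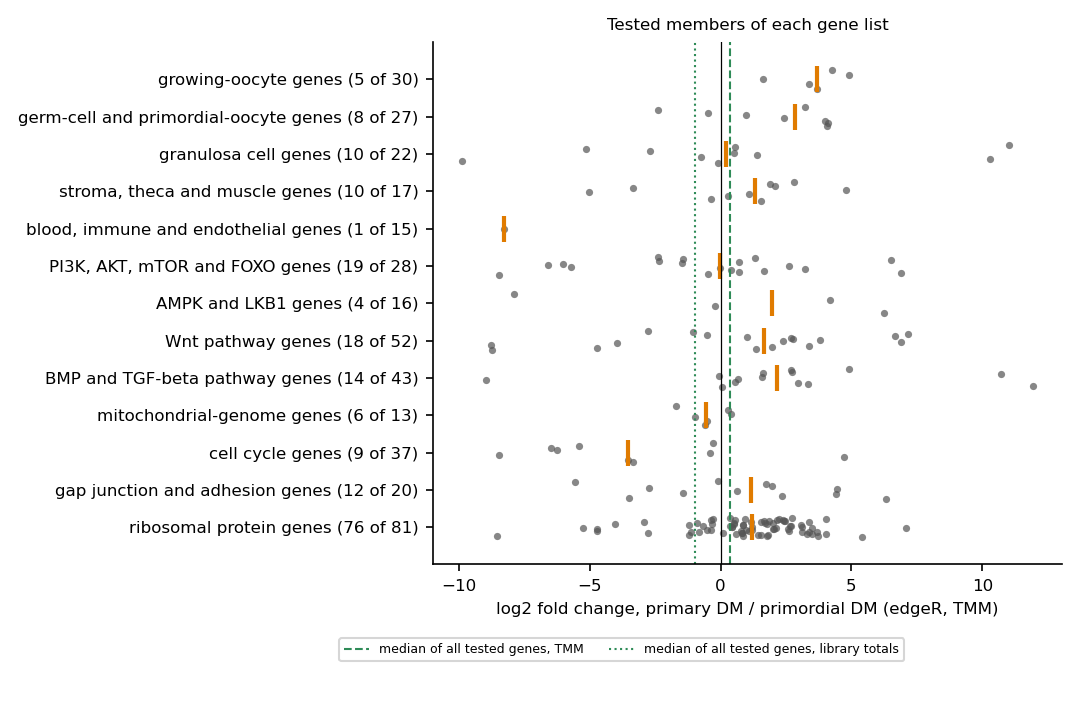
Each grey point is the log2 fold change of primary over primordial DM oocytes of 1 tested list member, the orange bar is the list's median, and the axis label gives tested members of all listed. The dashed and dotted lines are the medians of all tested genes, 0.35 with TMM and -0.96 with library sizes alone. Cell cycle genes lay to the left, with a median of -3.53.

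Genes of the PI3K, AKT, mTOR and FOXO pathway, the known route of follicle activation, were evenly split. Of 28 genes 19 were tested, 9 higher and 10 lower, with a median of -0.03 that was 1.29 with RLE. *Rictor*, a subunit gene of the second mTOR complex, had 85769, 24 and 19 counts in primary and 14251, 4133 and 1579 in primordial libraries. *Mtor* had 10, 102 and 266 counts against 7265, 37793 and 9365. *Mtor* did not overlap between the stages, while *Rictor* did. *Foxo1* had 2673, 901 and 8 counts in primary and 40, 34 and 3 in primordial libraries, a log2 fold change of 6.91 (SE 3.48, edgeR adjusted p 0.290).

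Among the lists with more than 1 tested member, the cell cycle list had the lowest median, -3.53. Of 37 genes, 9 were tested, and 8 of these were lower in primary oocytes, beside 46.7% of all tested genes. The summed level was 503, 3.89 and 104 CPM in primary and 798, 1925 and 1112 CPM in primordial libraries, without overlap. These sums rested on different genes, the highest being *Ccna2* in the first primary library and *Fzr1* in the third. *Cdkn1b*, the gene of the inhibitor p27, had 11, 6 and 3 counts in primary and 1908, 17033 and 544 in primordial libraries. *Cdk4*, a kinase gene of the G1 phase, had 7, 17 and 99 counts against 11070, 2661 and 7752. Both were separate between the stages, and *Cdkn1b*, which is also on the PI3K list, was the only member of either list with an unadjusted p under 0.05. *Ccna2*, the cyclin A gene, had 12859, 7 and 13 counts against 10640, 24578 and 2, and overlapped.

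Of 16 AMPK and LKB1 genes 4 were tested, 2 higher and 2 lower, with a median of 1.98 that was 0.53 with library sizes alone. *Prkab1*, a regulatory beta subunit gene of AMPK (GRCm38 chromosome 5, 116013586 to 116024508, minus strand), had 2, 9 and 3 counts in primary and 1622, 3545 and 2980 in primordial libraries. The primordial libraries were even and all higher. The log2 fold change was -7.89 (SE 3.63, edgeR adjusted p 0.286), and it was the only member with an unadjusted p under 0.05. *Acaca*, the acetyl-CoA carboxylase gene whose product AMPK phosphorylates, had 2627, 8150 and 1105 counts against 8470, 6129 and 15256. *Acaca* had a log2 fold change of -0.21 (SE 2.82, edgeR adjusted p 0.973), and its stages overlapped.

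The other AMPK and LKB1 genes named by the study were high in 1 library at most and did not pass the filter. *Prkaa1*, a catalytic alpha subunit gene, had 4, 3 and 0 counts in primary and 12, 5 and 6354 in primordial libraries. *Prkab2* had 6841, 1 and 0 counts against 0, 10 and 4, and *Prkag2* had 0, 3 and 3408 against 0, 43 and 0. *Stk11*, the LKB1 gene, had 0, 3 and 1 counts against 64, 6561 and 0. *Strada* and *Cab39*, the partners of LKB1, peaked at 4559 and 6653 counts in the first primordial library. *Ppargc1a* had 734 counts in that library and at most 1 elsewhere, and *Prkag1* had at most 1 count in any DM library.

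Of 52 Wnt pathway genes, 18 were tested, 11 higher and 7 lower, with a median of 1.66 that was -0.17 with library sizes alone. *Ctnnb1*, the beta-catenin gene (GRCm38 chromosome 9, 120929216 to 120960507, plus strand), was the most abundant and had 2946, 236140 and 247719 counts in primary and 251696, 126678 and 35296 in primordial libraries. *Csnk1a1*, a kinase gene of the beta-catenin destruction complex, had 61, 135709 and 70428 counts against 6489, 19805 and 20881. *Lrp6*, a Wnt coreceptor gene, had 5956, 83826 and 48017 counts against 4762, 783 and 32885. In all 3 the first primary library was far below the others of its stage, and the stages overlapped. The log2 fold change of *Ctnnb1* was 1.95 (SE 1.88, edgeR adjusted p 0.570).

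At an unadjusted p under 0.05, *Fzd2* and *Apc* were higher and *Gsk3b*, *Znrf3* and *Tcf7l1* lower in primary oocytes. *Gsk3b*, a kinase gene of the same destruction complex, had 7, 4 and 10 counts in primary and 15582, 380 and 5822 in primordial libraries and did not overlap. *Fzd2*, a Wnt receptor gene, had 22695, 58659 and 12 counts against 12, 1867 and 10. *Apc*, another destruction complex gene, had 31, 38 and 109197 counts against 697, 1793 and 186. The last 2 were high in 2 and 1 primary libraries.

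Wnt ligands were scarce. Of the 10 ligand genes named by the study, *Wnt2* and *Wnt9a* had no count in the DM libraries, *Wnt1* and *Wnt10b* had 1, and *Wnt5a* had 7. *Wnt2b* had 1, 0 and 87 counts in primary and 1809, 57 and 81 in primordial libraries, a log2 fold change of -2.79 (SE 2.70, edgeR adjusted p 0.570). *Wnt4* had 3, 358 and 2 counts against 3, 2534 and 159, a log2 fold change of -1.07 (SE 2.69, edgeR adjusted p 0.847). *Wnt5b* had 303 counts in the third primordial library, *Wnt6* had 101 in the second, and *Wnt11* had 0, 107 and 190 in primordial libraries. *Wnt11* had 0 counts in all primary libraries and is the only one of the last 3 with signal in 2 libraries.

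Of 43 BMP and TGF-beta pathway genes, 14 were tested, 12 of them higher, with a median of 2.14 that was 0.68 with library sizes alone. *Smad4*, the common partner of the receptor-activated SMAD proteins, had 24716, 41 and 149078 counts in primary and 42, 33 and 27 in primordial libraries. *Bmpr1b*, a type I BMP receptor gene, had 9, 431 and 1348 counts against 1, 0 and 1. *Acvr2b*, an activin receptor gene, had 22, 14 and 16 counts against 82946, 12 and 12. These 3 had an unadjusted p under 0.05, and for *Acvr2b* a single primordial library was high. *Smad3* had 57, 101293 and 55442 counts against 17136, 39071 and 411, and *Smad5* 23734, 15 and 15 against 46164, 2256 and 2733, and both overlapped.

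Of 20 gap junction and adhesion genes, 12 were tested, 7 higher and 5 lower, with a median of 1.17 that was -0.18 with library sizes alone. *Itga6*, an integrin gene, had 182, 111205 and 44777 counts in primary and 8009, 9890 and 4197 in primordial libraries. *Ctnna1*, the alpha-catenin gene, had 26290, 41602 and 114 counts against 42982, 16830 and 4286, so that 1 primary library was low in each gene and the stages overlapped. Of 13 protein-coding genes of the mitochondrial genome, 6 were tested, 2 higher and 4 lower, with a median of -0.55 that was 1.19 with RLE. Their summed level was only 8.14, 0.680 and 7.07 CPM in primary and 8.61, 37.8 and 6.70 CPM in primordial libraries. *mt-Cytb* had 50, 13 and 28 counts against 112, 219 and 22, *mt-Nd5* 32, 1 and 56 against 39, 374 and 36, and *mt-Nd2* 69, 3 and 70 against 38, 220 and 26. The groups overlapped in all 3.

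Ribosomal protein genes were the most evenly measured list. Of 81 genes, 76 were tested, 58 higher and 18 lower, with a median log2 fold change of 1.20 with TMM, -0.14 with library sizes alone and 2.99 with RLE, so their direction rested on the scaling. Their summed level overlapped, at 43665 to 64161 CPM in primary and 43334 to 61297 CPM in primordial libraries. *Rpl19* had 56356, 114 and 296729 counts in primary and 50425, 33944 and 173702 in primordial libraries, and *Rpl32* 82859, 230141 and 7096 against 170103, 86153 and 41833. These abundant members overlapped. *Rpl39* had 5, 10 and 6 counts against 13504, 4325 and 4106 and was, with *Rpl29*, the only member with an unadjusted p under 0.05.

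In control ovaries, the same 2 stages overlapped in the number of genes detected and gave no calls either. At least 10 counts were found for 6408, 6059 and 2913 genes in primary control and 9333, 5952 and 5432 genes in primordial control libraries. In edgeR, 0 of 6726 tested genes had an adjusted p under 0.05, 433 had an unadjusted p under 0.05, and DESeq2 called 278. The third primary control library held the fewest genes, and without it the calls were again 0, with 587 at an unadjusted p under 0.05. No sample is shared by the DM and the control comparison.

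The stage differences under DM and in controls had almost no correlation across genes. Over 3962 genes tested in both, Pearson's r of the log2 fold changes was 0.0037 and Spearman's rho 0.0059, where genes are not independent replicates. The median SE of a log2 fold change was 2.98 under DM and 2.82 in controls. With errors of that size, r near 0 cannot decide whether the stage differences were unlike. The sign was the same in 2004 of them (50.6%). Of 466 genes tested in both and lower without overlap under DM, 39 (8.37%) were also lower without overlap in controls, beside 6.97% of all 3962 genes, and these 39 were 14.1% of the 276 such genes in controls. On the higher side it was 6 of 170 (3.53%), beside 2.12% of all, and 7.14% of the 84 in controls.

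**Figure D5:**
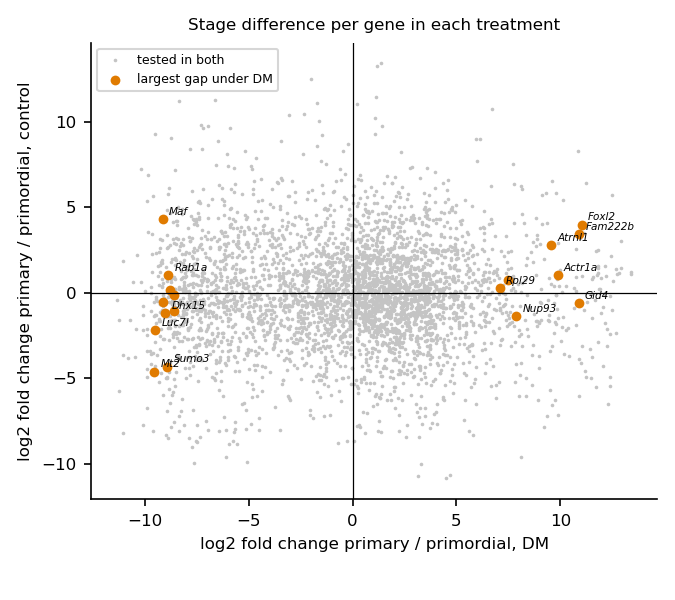
Each point is 1 of 3962 genes tested in both treatments, by its log2 fold change of primary over primordial oocytes under DM (horizontal) and in controls (vertical), and orange points are the named genes with the widest gaps under DM. The cloud has no slope (Pearson's r 0.0037), and the orange genes lie at both ends of the DM axis and on either side of 0 in controls.

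Genes that did not overlap between the stages under DM were also read in controls. *Dhx15* had 18763, 8095 and 33 counts in primary and 26282, 54411 and 2036 in primordial control libraries, and *Sin3a* had 4696, 6174 and 269 against 11518, 7439 and 282. *Maf* had 5883, 795 and 4 counts against 499, 42 and 16. *Foxl2* had 10775, 135 and 226837 counts in primary and 40701, 39034 and 4197 in primordial control libraries, and *Gid4* had 3128, 437 and 4 against 5418, 2742 and 12. All 5 genes overlapped between the stages in controls.

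*Mt2* had 139, 2 and 2 counts in primary and 786, 67 and 1516 in primordial control libraries. *Prkab1* had 7637, 70 and 110 counts in primary and 2965, 725 and 176 in primordial controls, and both genes overlapped. Of the 153 genes with at least 1000 counts in all primordial and no primary DM library, 122 reached 1000 counts in at least 1 primary control library. They were 98 in the first, 99 in the second and 24 in the third. Over all genes, these 3 libraries held 2832, 2478 and 783 genes at that level. The 153 genes were chosen for high counts in primordial DM libraries, and 142 also reached 1000 counts in a primordial control library. In controls, 4 of the 153 showed the full pattern of the DM libraries, and over all genes 94 of 6194 (1.52%) did. The reverse pattern, all primary and no primordial control library, was found for 4 of the 6194 (0.0646%).

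The interaction of stage and DM was tested over all 12 libraries. Of 8500 genes, 0 (0%) had an edgeR adjusted p under 0.05, the smallest was 0.0974, and 1605 had an unadjusted p under 0.05, 774 with a more positive stage difference under DM. That number was 496 of 1549 with library sizes alone and 1115 of 1789 with RLE. DESeq2 called 571 genes. In edgeR, no named gene had a stage difference shown to change with DM.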

How the data were processed

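The measured quantity was RNA sequencing reads per gene in pools of laser-captured mouse oocytes. By the study's methods, amplified RNA went into TruSeq RNA Access libraries, which the labels assign to microdissected oocytes (Smart-seq II is named for collected ones), and adapter trimming by trim_galore preceded mapping to mm10 with TopHat2, where the submitters' processing notes name STAR instead. The authors counted reads per gene with featureCounts, and the raw counts were deposited. Samples were grouped by their labels, and no column of the table was without a sample. Of 55401 identifiers 55141 were matched to a symbol in the GRCm38 annotation. Libraries were compared in pairs by chi-square, and none were duplicates.

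The genes and lists named, and the comparisons, were chosen with earlier results of these data known. Counts of the libraries compared were tested in R 4.3.3 with edgeR 4.0.16 (filterByExpr, TMM, glmQLFit, glmQLFTest, prior count 0.125) and Benjamini-Hochberg adjustment at 0.05. Named were the 12 genes on each side with the smallest p among those without overlap after TMM scaling, leaving out Gm and Rik names, the 8 with the highest median CPM, the 3 most abundant of each list, and the genes the study names. Genes with the widest gap, members with an unadjusted p under 0.05 and genes of counts of 5 or fewer were named after the values had been seen. Some genes that met these rules are not reported here. CPM used library totals. Alternatives were DESeq2 1.42.0, RLE, TMMwsp, library sizes alone, no filter, a stricter filter (10 counts in every library), a prior count of 2, a replicate block, 12 libraries in 1 fit and left-out libraries. Setting counts under 5 per 10000 of a gene's sum to 0 was added after the values had been seen. Bounds cover counting error only. The code was tested on simulated data. At the dispersion of the DM libraries (3.39), edgeR recovered 0% of the genes changed by 2 or 3 log2 units. DESeq2 recovered 1% and 5% of them there and also called 132 unchanged genes. At a dispersion set to 0.05, edgeR recovered 97% and 99% and DESeq2 96% and 100%. Tables were made in Python 3.11.15. The protein, imaging and human data were not analysed here.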

Additional observations from a re-analysis of the deposited data

How the results depend on the processing

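Of the 43 genes with a fold change that met the naming rules, 36 kept its direction under every alternative that fitted them. Some were not fitted under all, as *Shank3* and *Smad4* had no fold change with low counts set to 0. Library sizes alone reversed *Malat1* (-0.77), *Eif4g2* (-0.58), *Ahnak* (-0.47) and *Gnas* (-0.70), and setting low counts to 0 did so too (-0.69, -0.54, -0.42 and -0.39). RLE and DESeq2 reversed *Acaca* (1.58 and 0.70), *Wnt4* (1.18 and 0.40) and *Foxo3* (1.29 and 0.91). Left-out libraries gave -0.073 to 1.52 for *Eif4g2*, -0.18 to 1.44 for *Gnas*, -1.82 to 1.00 for *Acaca*, -7.35 to 1.41 for *Wnt4* and -6.92 to 5.56 for *Foxo3*. The cause was not tested.

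Against 0 calls in edgeR, DESeq2 called 911 genes under DM, 278 in controls and 571 in the interaction, and an unadjusted p under 0.05 gave 746, 433 and 1605. Left-out libraries gave 0 to 4 calls under DM. In controls, library sizes alone gave 1 call and 10 counts in every library gave 4. The other alternatives gave 0. Under DM the genes at an unadjusted p under 0.05 were 1826 of 14049 with no filter, 186 of 1322 with 10 counts in every library, 2181 of 8500 with 12 libraries in 1 fit and 345 of 3889 with low counts set to 0. Same-numbered DM libraries did not deviate together (r -0.00097, -0.029 and 0.0086). At the wide spread between libraries, such values cannot decide whether the numbers pair them. With the replicate block the calls were 0, 123 genes had an unadjusted p under 0.05, and *Gnas* was -0.13. With 3 pools a stage, SEs were above 1 also for the most abundant genes, such as *Malat1* (1.59) and *Actb* (1.37).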

Other observations

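Genes of blood, immune and endothelial cells were nearly silent in most libraries and appeared in single ones. Of 15 such genes 1 was tested, and the summed level was 19.9, 25.1 and 861 CPM in primary DM and 18.3, 691 and 239 CPM in primordial DM libraries. *Tie1*, an endothelial receptor gene, had 3, 1 and 30177 counts in primary and 3, 4 and 2 in primordial libraries. *Kdr*, the gene of a receptor for vascular endothelial growth factor, had 14, 6 and 5 counts against 692, 21234 and 4. *Alas2*, the erythroid enzyme gene of heme synthesis, had 1, 0 and 4 counts against 2, 0 and 5023. Each of these genes had its high value in a different library.

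The genes called by DESeq2 under DM differed in kind. Of the 911, 319 had at most 3 counts in every library of 1 stage, 142 (15.6%) had 1 library at over 20 times the next, and 422 (46.3%) did not overlap between the stages by library totals.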
